A study of Sander lucioperca with 12 samples.

Results

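In the brains of juvenile pikeperch (Sander lucioperca), 6 genes that receive or answer the cortisol signal were followed. They are the glucocorticoid receptor nr3c1, the mineralocorticoid receptor nr3c2, the receptor co-chaperone fkbp5, and the cortisol-induced genes tsc22d3, sgk1 and cebpd. The genes were chosen by symbol, and all 6 were found among the 32963 named genes of the count table. They were chosen with earlier results of these data known, so counts over the 6 are not independent evidence. The question was how these genes differed between phenotypes and between years, as a readout of the stress of capture. No cortisol measurement and no group of unhandled fish accompany the libraries analysed here.

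The 12 libraries come from 12 young-of-the-year fish of Lipno Reservoir, Czech Republic, taken in the last week of August, with 1 whole-brain poly(A) library per fish. Piscivores of 2023, labelled piscivorous or cannibal, piscivores of 2022, planktivores of 2023 and planktivores of 2022 had 3 fish each. Piscivores were seined at night along the shore and planktivores were trawled at night in open water, so gear, habitat, diet and body size go with the phenotype and cannot be told apart from it. All fish were killed by interruption of the spinal cord, brains went into RNAlater, and sex could not be seen at this age. The fish sequenced were those of each group with the best RNA, and the labels give 1 batch per year, so batch and year cannot be told apart either. By the paper's lengths, fish of each phenotype were also smaller in 2023 than in 2022, without overlap. Within a phenotype, body size therefore cannot be told apart from the year. Nothing links fish of different groups, and the p-values measure the spread over 3 fish per group.

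Cortisol is the main stress steroid of bony fish and is released by the interrenal tissue when the hypothalamus and pituitary are activated. It binds nr3c1 and, with higher affinity in many fish, nr3c2, and both receptors then act as transcription factors in the nucleus. Before that, chaperones hold the receptors in the cytoplasm. Fkbp5 lowers the affinity of the glucocorticoid receptor for its hormone and is itself induced by it, a short negative feedback loop known from mammals. Tsc22d3, also called Gilz, restrains inflammatory transcription factors, sgk1 is a kinase that regulates ion channels and transporters, and cebpd is a transcription factor of the acute-phase response that also answers cytokines. In whole-brain RNA, fewer cells of a type and less RNA per cell cannot be told apart.

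The libraries held 15327406 to 33858794 counts on named genes, and every member was counted well above the floor, from 122 reads for cebpd to 5001 reads for tsc22d3 in a single library. A floor of 3 counts corresponded to 0.0886 to 0.196 CPM (counts scaled to a library of 1000000), which covers counting error only. In 2023 ribosomal RNA genes made up 0.14% to 0.36% of a library, against 12.0% to 21.0% in 2022. Within 2022 the share was 12.0% to 15.4% in piscivores and 14.6% to 21.0% in planktivores, so it also differed between phenotypes, with overlap. Neuronal markers, 7 of 10 listed ones found and none at 0, summed to 5137 to 7151 CPM over the 12 libraries. Pituitary markers, 8 of 11 found, summed to 2630 and 2354 CPM in piscivores 1 and 2 of 2023 and to 565 CPM in planktivore 4 of 2023, against at most 26.8 CPM in the other 9 libraries. Some of the results that use these 3 libraries, but not all, are also given without them. Such fits leave 1 piscivore and 2 planktivores of 2023, and the lone piscivore is assumed to vary like the other fish.

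Per exon length of the gene, which is not the length of a single transcript, the cortisol-induced genes lay above the receptors. The deposited TPM, counts divided by exon length and scaled to a common total, averaged 71.7 ± 12.5 for tsc22d3, 56.3 ± 10.4 for sgk1, 33.2 ± 13.4 for fkbp5, 19.1 ± 10.3 for cebpd, 12.6 ± 3.94 for nr3c2 and 11.2 ± 1.72 for nr3c1 (SD, n = 12). Neighbours in this order kept it in most fish, with tsc22d3 above sgk1 in 10 of 12, sgk1 above fkbp5 in 11, fkbp5 above cebpd in 9 and cebpd above nr3c2 in 10. The 2 receptors did not separate, since nr3c2 was the higher one in 7 of 12 fish only. The ratio of nr3c2 to nr3c1 in TPM was 1.0 ± 0.22 in piscivores and 1.1 ± 0.19 in planktivores of 2023, and 1.22 ± 0.40 in piscivores and 1.15 ± 0.29 in planktivores of 2022 (SD, n = 3 each). Fish of the same group thus differed in receptor balance by more than the groups did.

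**Figure D1:**
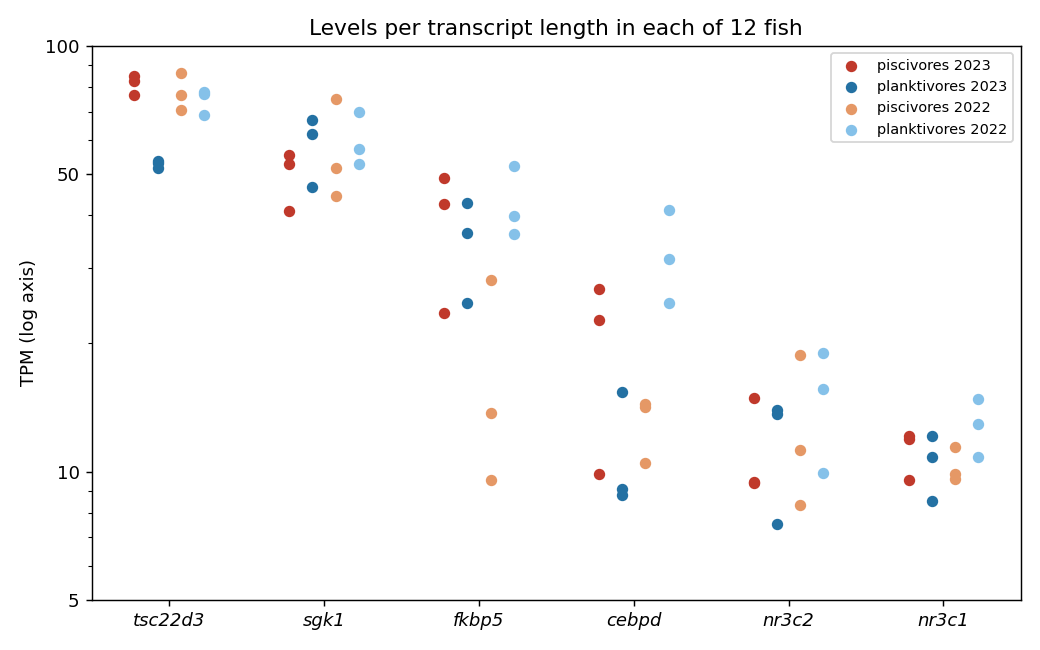
TPM of each gene in each of the 12 fish on a log axis, with the genes in order of mean level and the groups by colour. The 2 receptors on the right overlap over most of their range, while tsc22d3 on the left forms a tight low cluster only in planktivores of 2023.

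The genes differed in how far they varied between fish. The highest fish exceeded the lowest 5.86-fold for fkbp5 and 4.37-fold for cebpd in TMM-normalized CPM, the scale of all levels below. The same ratio was 2.25 for nr3c2, 1.82 for tsc22d3, 1.74 for sgk1 and 1.39 for nr3c1.

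**Figure D2:**
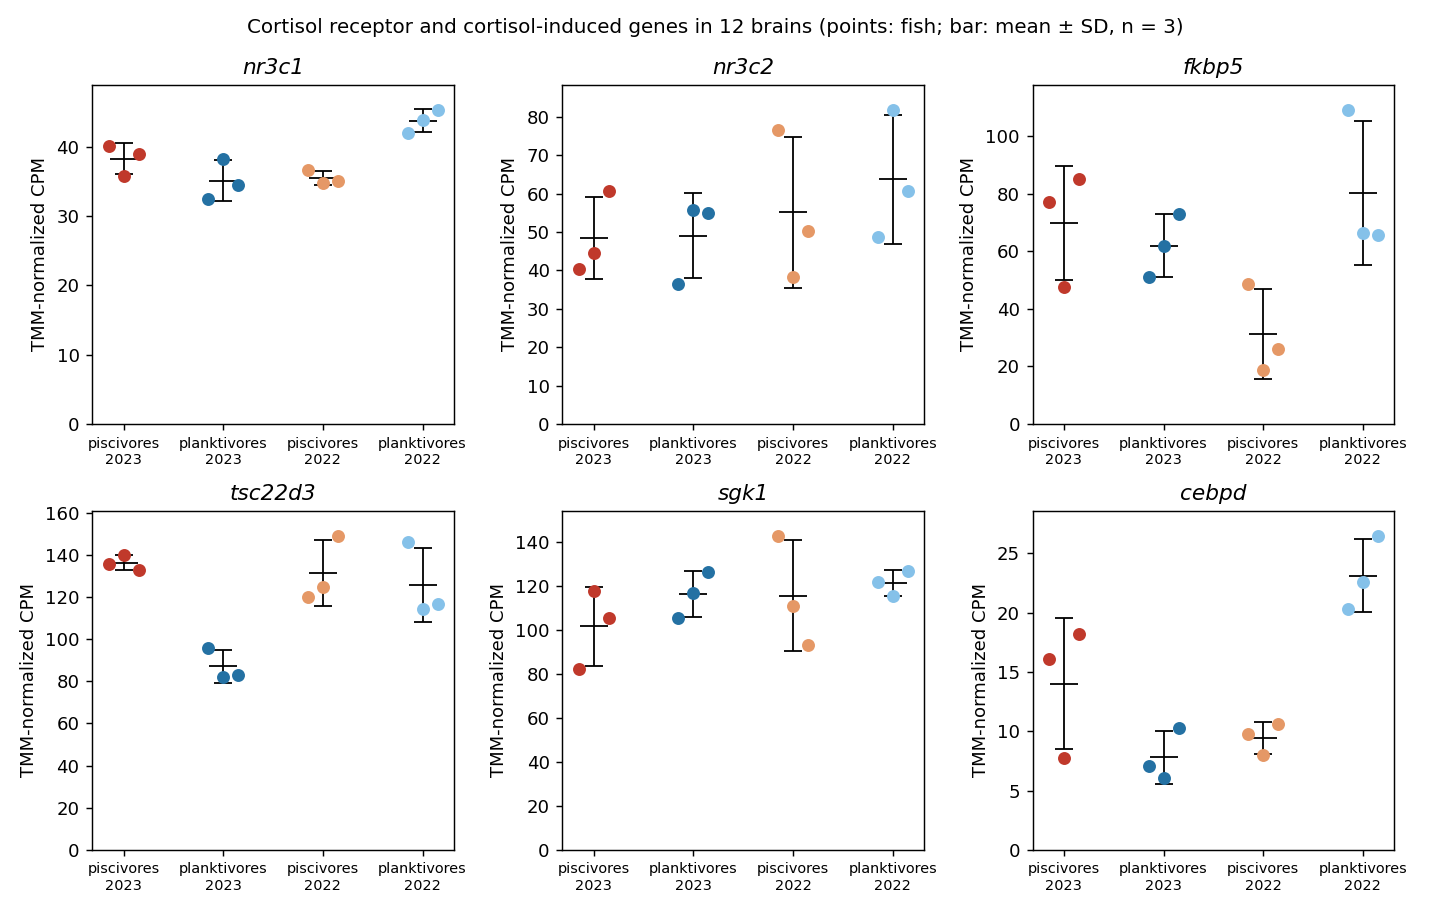
TMM-normalized CPM of the 6 genes in each fish (points) with the mean and SD of each group (bars, n = 3), piscivores and planktivores of 2023 on the left and of 2022 on the right. The cebpd panel shows planktivores of 2022 at 20.3 to 26.5 CPM, above all other fish, and the tsc22d3 panel shows planktivores of 2023 at 82.0 to 96.1 CPM, below all other fish.

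The glucocorticoid receptor gene nr3c1 lies on the minus strand of chromosome 1 (positions 36287585 to 36312414, build SLUC_FBN_1.2) and was the steadiest of the 6. In 2023 it had 40.1, 35.8 and 38.9 CPM in piscivores, against 32.5, 38.3 and 34.4 CPM in planktivores. In 2022 it had 36.6, 34.7 and 35.0 CPM in piscivores, against 42.0, 43.9 and 45.3 CPM in planktivores. Planktivores of 2022 were the high group and overlapped neither piscivores of that year nor planktivores of 2023. The log2 fold change of piscivores over planktivores was 0.13 (SE 0.12) in 2023 and −0.29 (SE 0.12) in 2022, and that of 2023 over 2022 was −0.30 (SE 0.11) in planktivores and 0.10 (SE 0.11) in piscivores. None of these passed the test, with edgeR adjusted p of 0.663, 0.655, 0.183 and 0.672 in that order.

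The mineralocorticoid receptor gene nr3c2 lies on the minus strand of chromosome 4 (34040777 to 34126984) and varied within every group. In 2023 piscivores had 40.2, 44.5 and 60.6 CPM, against 36.4, 55.8 and 54.9 CPM in planktivores. In 2022 piscivores had 76.7, 38.3 and 50.3 CPM, against 48.7, 81.7 and 60.7 CPM in planktivores. All pairs of groups overlapped. The log2 fold changes lay between −0.36 (SE 0.22, planktivores of 2023 over 2022) and −0.01 (SE 0.22, piscivores over planktivores in 2023), with edgeR adjusted p of 0.411 and 0.986, and 3 of the 4 took the other sign when 1 fish was left out.

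The co-chaperone gene fkbp5, on the plus strand of chromosome 6 (4236455 to 4250199), was lowest in piscivores of 2022. These fish had 48.7, 18.6 and 26.2 CPM, against 109, 66.2 and 65.6 CPM in planktivores of the same year, and the groups did not overlap. In 2023 piscivores had 76.9, 47.5 and 84.9 CPM, against 51.1, 61.7 and 73.1 CPM in planktivores, and the groups overlapped throughout. The phenotype difference was a log2 fold change of −1.35 (SE 0.39) in 2022 and 0.18 (SE 0.23) in 2023. In edgeR's quasi-likelihood test neither was called, at adjusted p of 0.502 and 0.787, while DESeq2 called the 2022 difference at an adjusted p of 0.0200. Piscivores of 2023 stood above piscivores of 2022 by 1.15 (SE 0.39) on the log2 scale, at an adjusted p of 0.227 in edgeR and 0.0321 in DESeq2. The groups overlapped, since piscivore 2 of 2023 (47.5 CPM) lay below piscivore 1 of 2022 (48.7 CPM), and without the pituitary-bearing libraries, which leaves piscivore 4 of 2023, the value was 1.45 (SE 0.53, edgeR adjusted p = 0.999). Planktivores of 2023 over 2022 gave −0.37 (SE 0.24, edgeR adjusted p = 0.447).

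The lowest fish, piscivore 2 of 2022, was also unlike its group in tissue markers. Its oligodendrocyte markers (9 of 9 found, none at 0) summed to 25351 CPM, against 7894 to 14505 CPM in the other 11 fish, and its telencephalon markers (9 of 10 found, none at 0) to 20.2 CPM, against 37.7 to 204 CPM elsewhere. Without this fish the log2 fold change of fkbp5 in 2022 was −1.11, and its part in the difference was not tested further. Over the 6 fits without 1 fish the log2 fold change lay between −1.83 and −1.07, and edgeR called it in 0 of them. The highest fish, planktivore 2 of 2022, had the largest share of ribosomal RNA, 21.0%. The part of that fish in the difference was not tested further either. Meningeal markers (10 of 11 found, none at 0) summed to 271 to 477 CPM in piscivores of 2022, against 125 to 233 CPM in planktivores. Skeletal muscle markers (7 of 10 found, none at 0) summed to 5.94 to 12.4 CPM in piscivores of 2022, against 43.6 to 55.8 CPM in planktivores. Choroid plexus markers (5 of 7 found, 1 of them at 0 in every fish) summed to 69.2 to 96.0 CPM in piscivores of 2022, against 54.8 to 65.3 CPM in planktivores, and to 46.0 to 54.2 CPM in piscivores of 2023. The part of these tissues in the differences of fkbp5 and cebpd was not tested.

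The gene tsc22d3, with 3 annotated transcripts on the plus strand of chromosome 1 (31401203 to 31435968) that the gene counts do not separate, was low in planktivores of 2023. In 2023 piscivores had 136, 140.1 and 133 CPM, against 96.1, 82.0 and 83.2 CPM in planktivores, and the groups stood well apart. In 2022 piscivores had 120.1, 125 and 149 CPM, against 146, 114 and 117 CPM in planktivores, and the groups overlapped. The log2 fold change of piscivores over planktivores was 0.65 (SE 0.12) in 2023, at an edgeR adjusted p of 0.0969, and 0.08 (SE 0.16) in 2022, at 0.949. DESeq2 gave the 2023 difference an adjusted p of 6.35e-05, but its fold of 1.57 stays under the doubling that a call required. Planktivores of 2023 lay below planktivores of 2022 without overlap, by a log2 fold change of −0.52 (SE 0.16), at an adjusted p of 0.135 in edgeR and 0.0285 in DESeq2, and piscivores gave 0.04 (SE 0.13, edgeR adjusted p = 0.897).

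Within years, tsc22d3 was the only one of the 6 with an exact permutation p under the threshold of 0.05. Its log2 CPM averaged 0.36 higher in piscivores over both years (two-sided exact p = 0.025, where 0.005 is the smallest p that the 400 arrangements can give), and leaving out 1 fish moved this p between 0.010 and 0.055. It reached 0.05 or more without any single piscivore of 2023, without piscivore 3 of 2022 and without planktivore 3 of 2022. The other 5 genes had p between 0.13 for fkbp5 and 0.585 for nr3c2, and the matching tests of year gave p between 0.105 for tsc22d3 and 0.36 for sgk1. These 12 p-values are not adjusted for their number.

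Some marker sums of other tissues were also higher in piscivores of 2023 without overlap. Microglia and leukocyte markers (8 of 11 found, none at 0) summed to 1738 to 3542 CPM in piscivores, against 738 to 1587 CPM in planktivores. Meningeal markers summed to 287 to 948 CPM in piscivores, against 119 to 250.2 CPM in planktivores, and telencephalon markers to 108 to 204 CPM, against 55.6 to 67.4 CPM. Erythrocyte markers (9 of 11 found, none at 0) went the other way with overlap, at 172 to 325 CPM in piscivores, against 314 to 728 CPM in planktivores. The part of these tissues in the tsc22d3 difference was not tested. The piscivore of 2023 without pituitary transcripts, piscivore 4, had 133 CPM of tsc22d3 and lay above all 3 planktivores, and with all 3 pituitary-bearing libraries left out the log2 fold change was 0.68 (edgeR adjusted p = 0.177). That fit sets 1 piscivore against 2 planktivores, so only the planktivores show spread within a group, and edgeR also shares variance across genes.

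The kinase gene sgk1, with 6 annotated transcripts on the minus strand of chromosome 19 (18646776 to 18680798), differed little between groups. In 2023 piscivores had 82.2, 118 and 106 CPM, against 106, 117 and 127 CPM in planktivores. In 2022 piscivores had 143, 111 and 93.1 CPM, against 122, 115 and 127 CPM in planktivores. Every pair of groups overlapped, and both the highest and the lowest fish were piscivores. The largest log2 fold change was −0.20 (SE 0.20, piscivores of 2023 over 2022, edgeR adjusted p = 0.622), and the other 3 comparisons had adjusted p of 0.650 to 0.973.

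The acute-phase regulator gene cebpd, a single transcript on the plus strand of chromosome 9 (9958700 to 9960115), had the only difference of the 6 that edgeR called. In 2022 piscivores had 9.74, 7.98 and 10.6 CPM, against 20.3, 22.6 and 26.5 CPM in planktivores. In 2023 piscivores had 16.1, 7.76 and 18.2 CPM, against 7.06, 6.06 and 10.3 CPM in planktivores. Planktivores of 2022 were thus the high group, above all other fish. Planktivores of 2023 had the lowest mean but overlapped piscivores of both years.

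Planktivores of 2023 averaged 7.81 ± 2.22 CPM of cebpd, against 23.1 ± 3.11 CPM in planktivores of 2022 (SD, n = 3 each). Here cebpd fell by 1.55 on the log2 scale (SE 0.22, 2.93-fold lower in 2023, edgeR adjusted p = 0.0316, DESeq2 9.25e-08), the only call among the 6 genes in any edgeR comparison. It was lost in each of the 6 fits without 1 fish, with log2 fold changes of −1.80 to −1.40 and adjusted p of 0.0521 to 0.104, one of which also removes the library with pituitary transcripts (planktivore 4 of 2023, 0.0766). Piscivores of 2023 over 2022 gave 0.56 (SE 0.30, adjusted p = 0.371).

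Between phenotypes the cebpd difference had opposite signs in the 2 years. Piscivores over planktivores gave a log2 fold change of −1.28 (SE 0.16) in 2022, with an edgeR adjusted p of 0.0660 and a DESeq2 adjusted p of 1.88e-06, so that DESeq2 called it and edgeR did not. In 2023 it was 0.86 (SE 0.34, edgeR adjusted p = 0.329, DESeq2 0.171), and 1.15 without the pituitary-bearing libraries (edgeR adjusted p = 0.328). The difference between the years, 2.13 (SE 0.40), was not called by edgeR (adjusted p = 0.187) and was called by DESeq2 (6.10e-04). Piscivore 2 of 2023 had 7.76 CPM, beside 16.1 and 18.2 CPM in the other piscivores of its year. Without it edgeR gave 2.41 and an adjusted p of 0.0371. That was the only call in the 12 fits without 1 fish, which gave 1.88 to 2.41 and adjusted p of 0.0371 to 0.453. Without the 3 pituitary-bearing libraries the difference was 2.43.

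Erythrocyte markers (9 of 11 found, none at 0) moved with the year in planktivores, at 314 to 728 CPM in 2023, against 91.3 to 184 CPM in 2022, and neuronal markers summed to 6119 to 7151 CPM in 2023, against 5137 to 6091 CPM in 2022. Their part in the fall of cebpd was not tested, and the share of ribosomal RNA cannot be told apart from the year. With ribosomal RNA genes left out before normalization, the log2 fold change of cebpd in planktivores was again −1.55, at an adjusted p of 0.0317. The annotated span of cebpd overlaps the gene spidr, and whether reads were counted by strand is not given in the sources used here. Spidr had 7.21 to 11.5 CPM in all fish and a log2 fold change of 0.06 between planktivores of 2023 and 2022 (edgeR adjusted p = 0.864). The long noncoding genes that overlap nr3c2, tsc22d3 and sgk1 reached at most 0.37 CPM.

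**Figure D3:**
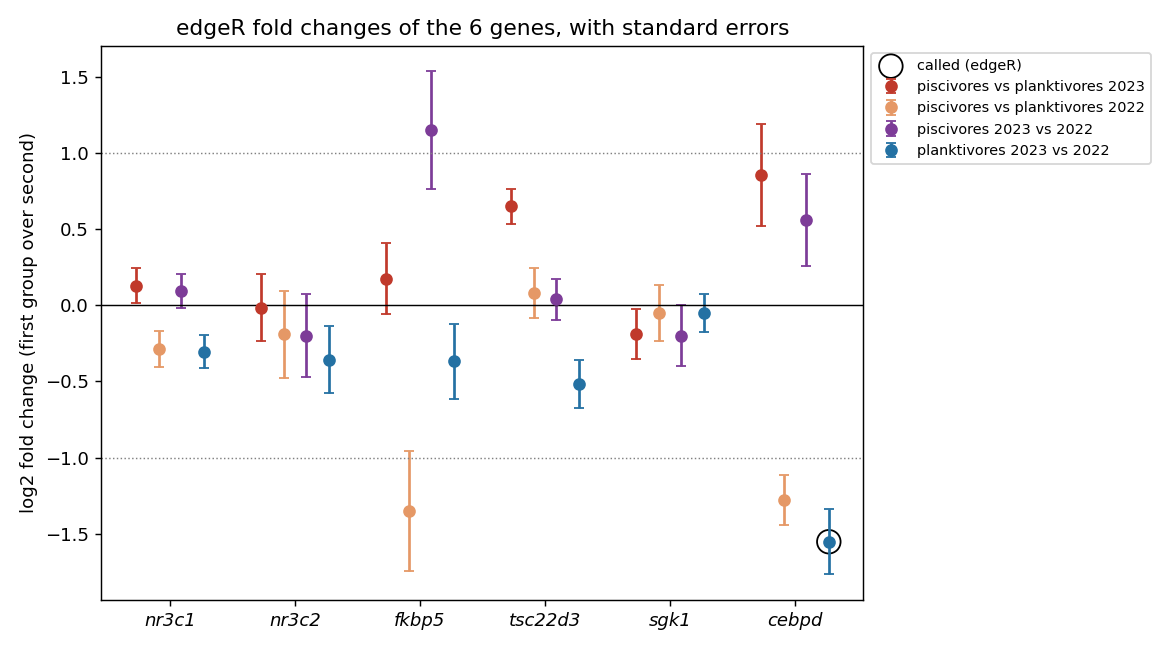
edgeR log2 fold changes of the 6 genes (points) with standard errors (bars) for piscivores over planktivores in each year and for 2023 over 2022 in each phenotype, dotted lines marking a doubling and a halving. The circled point, cebpd in planktivores at −1.55, is the only call, and fkbp5 and cebpd have phenotype differences of −1.35 and −1.28 in 2022.

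Counted over the 6 genes, calls were few and must be read against those of all genes. To be called, a gene had to change more than 1 on the log2 scale at an adjusted p below 0.05. Between phenotypes in 2023 edgeR called 0 of 6, with 2 at an unadjusted p below 0.05, and DESeq2 called 0. Among all genes tested the shares were 0.168% for edgeR calls, 13.7% for the unadjusted p and 1.40% for DESeq2 calls. The DESeq2 share is of 29297 genes with a p, and 7468 genes without an adjusted p could not be called, which lowers it. DESeq2 shares of the other comparisons were taken the same way. One member did not overlap between the groups, where 20.0% of all genes did not.

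In 2022 edgeR called 0 of 6, with 3 at an unadjusted p below 0.05, and DESeq2 called 2, both lower in piscivores. The shares of all genes were 0.0533%, 7.25% and 0.502% in the same order. The 3 members nr3c1, fkbp5 and cebpd did not overlap, all lower in piscivores, where 13.4% of all genes did not. The median log2 fold change of the 6 was −0.24 in 2022 and 0.15 in 2023, beside 0.00 over all genes tested in each year.

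Between years, piscivores had 0 edgeR calls, 1 member at an unadjusted p below 0.05 and 1 DESeq2 call, where all genes had 0.356%, 17.3% and 1.34%, and no member was without overlap, where 24.5% of all genes were. Planktivores had 1 edgeR call, 3 members at an unadjusted p below 0.05 and 1 DESeq2 call, where all genes had 0.971%, 20.0% and 2.01%. In planktivores 3 members did not overlap, where 26.9% of all genes did not, and all 6 log2 fold changes were below 0, with a median of −0.36 beside 0.00 for all genes. These comparisons share groups with each other, planktivores of 2022 entering 2 of them, so their values are not independent.

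Over both years together, edgeR called 0 of 6 between phenotypes, with 1 at an unadjusted p below 0.05 (tsc22d3, 0.35, SE 0.12, adjusted p = 0.209), and DESeq2 called 0. All genes had 0.298%, 14.9% and 0.719%. In the test of whether the phenotype difference of 2023 differed from that of 2022, edgeR called 0 of 6 and DESeq2 called 1, where all genes had 0.0138% and 0.303%. The 4 members cebpd, fkbp5 (1.53, SE 0.49), tsc22d3 (0.56, SE 0.19) and nr3c1 (0.41, SE 0.14) had an unadjusted p below 0.05 there, all with a positive difference, where 6.40% of all genes had such a p. Their edgeR adjusted p were 0.187 for cebpd and 0.630 to 0.645 for the other 3.

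Among the 6 genes, 3 varied together within years. After the mean of each year was subtracted, log2 CPM over the 12 libraries gave a Pearson r of 0.82 for cebpd with nr3c1, 0.76 for cebpd with fkbp5 and 0.76 for fkbp5 with nr3c1. The other pairs lay between −0.52 (tsc22d3 with sgk1) and 0.48 (nr3c2 with fkbp5 and with sgk1). These values describe 12 libraries that share phenotype and depth differences, and carry no test.

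Among 19000 genes with at least 1 CPM in at least 6 libraries, the genes most like cebpd were socs3a, an inhibitor of cytokine signalling (r = 0.93), nr1d2b, a repressor of the circadian clock (0.93), and ypel1 (0.92). Socs3a had 1.90, 2.48 and 2.46 CPM in piscivores, against 5.70, 4.28 and 6.38 CPM in planktivores of 2022, and 9.81, 2.48 and 7.58 CPM in piscivores, against 3.02, 2.38 and 4.40 CPM in planktivores of 2023. As for cebpd, piscivore 2 was the low piscivore of 2023. The genes most like nr3c2 were tecpr1a (0.98), fam110b (0.98) and b4galt2 (0.97), and those most like tsc22d3 were ldlrad3 (0.95), LOC116043029 (0.94) and LOC116056081 (0.94). For fkbp5 they were LOC116042804 (0.94), LOC116066626 (0.94) and asxl2 (0.92), for nr3c1 LOC116060403 (0.93), homeza (0.92) and LOC118493495 (0.92), and for sgk1 march5 (0.94), rec114 (0.93) and cd36 (0.93).

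A wider list of 72 genes, drawn up around induction by glucocorticoids in mammals and zebrafish, was read beside the members. Not all of them are established targets. The list also holds relatives of members, such as sgk2a, sgk2b, sgk3 and tsc22d2, and the neuropeptide gene hcrt. It had 51 genes in the table, matched by symbol. The paper reports genes annotated as klf15 that differed between phenotypes, some higher in planktivores and another higher in piscivores. They carry other symbols there, so they do not enter the counts of this list, and their part in its direction was not tested. The list was chosen with earlier results of these data known, so its counts are not independent evidence. Of 46 list genes tested in 2022, none was called by edgeR (0.0533% of all genes) and 5 were called lower by DESeq2 (0.502% of all genes). At an unadjusted p below 0.05, 10 were lower and 2 higher in piscivores (7.25% of all genes). Their median log2 fold change was −0.13, beside 0.00 for all genes. Of 49 tested in 2023, none was called by edgeR (0.168% of all genes) and 1 was called higher by DESeq2 (1.40% of all genes). At that p 8 were higher and 2 lower (13.7% of all genes), with a median of 0.19.

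The clock gene per1b, a direct glucocorticoid receptor target in mammals that also follows the time of day, had the clearest pattern of this list. In 2023 it had 52.5, 42.7 and 81.9 CPM in piscivores, against 20.4, 29.1 and 28.4 CPM in planktivores. In 2022 it had 39.0, 27.7 and 36.4 CPM in piscivores, against 78.5, 104 and 97.1 CPM in planktivores. The groups did not overlap in either year, and the order was opposite. The log2 fold change of piscivores over planktivores was 1.19 (SE 0.26, edgeR adjusted p = 0.135) in 2023 and −1.42 (SE 0.18, 0.0634) in 2022. The difference between them, 2.60 (SE 0.33), passed the test at an edgeR adjusted p of 0.0398. Leaving out 1 fish kept this call in 3 of 12 fits, those without piscivore 2 or 4 of 2023 or piscivore 1 of 2022, with adjusted p of 0.0234 to 0.137 over the 12. Without the pituitary-bearing libraries the difference was 2.92 (0.0267). The hour of capture of each fish is not given in the sources used here, and its part in per1b and nr1d2b was not tested.

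Further genes of this list also had a positive difference between the phenotype differences of 2023 and 2022 at an unadjusted p below 0.05. They were klf9, ddit4, txnipa, igfbp1a, irs2a, socs3a, socs3b, bcl6ab and hcrt, named because they make up the count, so that with per1b 10 of 48 tested genes had a positive difference at that p and none a negative one (6.40% of all genes in either direction). The median was 0.35, beside 0.00 for all genes. Ddit4 and igfbp1a did not change sign as per1b did. Their log2 fold changes of piscivores over planktivores were −0.09 and −0.05 in 2023, and −1.22 and −1.01 in 2022. The other genes named here were below 0 in 2022 and above 0 in 2023. Ddit4, an inhibitor of mTOR signalling, had 36.8, 35.5 and 32.6 CPM in piscivores, against 102, 79.0 and 65.6 CPM in planktivores of 2022. In 2023 it had 39.8, 48.9 and 57.7 CPM in piscivores, against 61.0, 48.6 and 46.7 CPM in planktivores, and the groups overlapped.

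**Figure D4:**
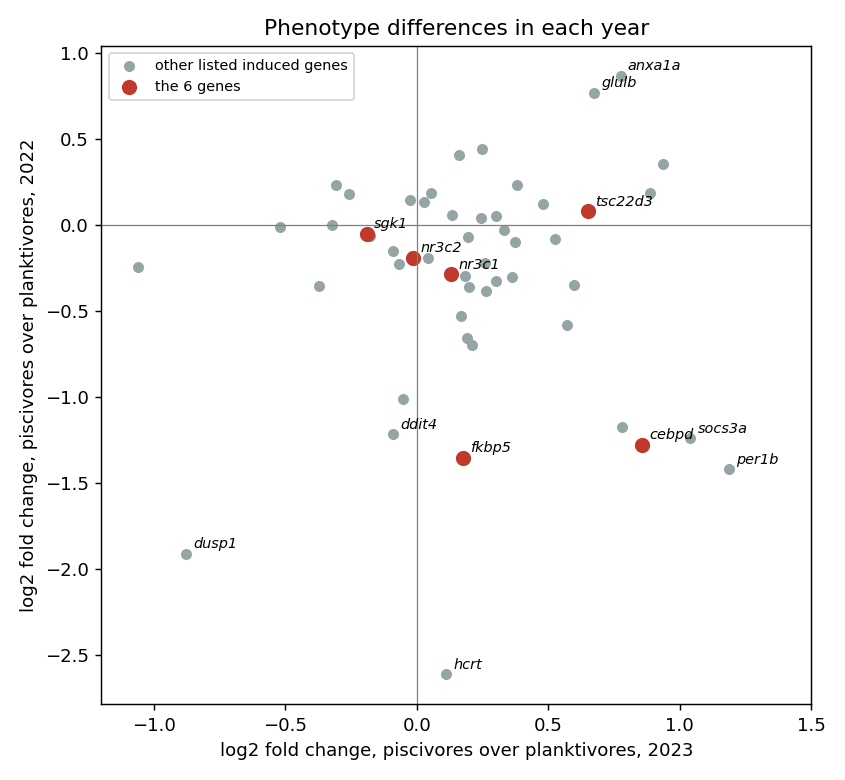
edgeR log2 fold changes of piscivores over planktivores in 2023 (x axis) and in 2022 (y axis) for the 6 genes (red) and the genes of the wider list tested in both years (grey), some labelled. Cebpd lies at 0.86 and −1.28 beside per1b at 1.19 and −1.42, while glulb (0.77 in 2022) and anxa1a (0.86 in 2022) lie above 0 in both years.

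In planktivores, 17 of 48 list genes were lower and 2 higher in 2023 than in 2022 at an unadjusted p below 0.05 (20.0% of all genes), with a median of −0.27. Of these, 2 were called by edgeR, where 0.971% of all genes were. Per1b fell by 1.82 on the log2 scale (SE 0.17, edgeR adjusted p = 0.00889) and cebpa, a relative of cebpd, fell by 1.96 (SE 0.21, 0.0174), with 1.26, 1.67 and 1.49 CPM in 2023, against 6.21, 5.22 and 6.03 CPM in 2022. Without planktivore 6 of 2023 both calls were lost, at 0.0617 for per1b and 0.0891 for cebpa, and that of cebpa also without planktivore 4 of 2022, at 0.0741. In piscivores, 7 list genes were higher and 4 lower in 2023 at that p, of 45 tested (17.3% of all genes). Of the 45, 1 was called by edgeR, where 0.356% of all genes were. The called one, the hypothalamic neuropeptide gene hcrt, rose by a log2 fold change of 3.93 (SE 0.53, adjusted p = 0.0270), with 2.72, 3.82 and 3.67 CPM in 2023, against 0.46, 0.11 and 0.11 CPM in 2022. In piscivores 2 and 3 of 2022 the level was under the floor of 3 counts, so the fitted fold depends on the prior count. Without the pituitary-bearing libraries, which leaves 1 piscivore of 2023, the log2 fold change was 4.05 and the adjusted p 0.493. The call was kept in 2 of 6 fits without 1 fish, with adjusted p of 0.0110 to 0.154, being lost without piscivore 2 or 4 of 2023 and without piscivore 2 or 3 of 2022.

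Some listed genes kept the sign of their phenotype difference in both years. The glutamine synthetase gene glulb had 305, 277 and 209.9 CPM in piscivores, against 205, 149.9 and 142 CPM in planktivores of 2023, and 191, 241 and 264 CPM in piscivores, against 139, 130.1 and 144 CPM in planktivores of 2022. Piscivores were the higher group without overlap in both years. Over both years its log2 fold change was 0.70 (SE 0.13, edgeR adjusted p = 0.0332), under the doubling that a call required, and leaving out 1 fish moved the adjusted p between 0.0194 and 0.110. The annexin gene anxa1a gave 0.80 (SE 0.19, 0.0787), and the phosphatase gene dusp1, lower in piscivores, −1.40 (SE 0.29, 0.0540). In 2022 dusp1 had 5.69, 4.40 and 4.27 CPM in piscivores, against 11.9, 18.9 and 23.9 CPM in planktivores, a log2 fold change of −1.91 (SE 0.27, adjusted p = 0.0844). In 2023 dusp1 had 4.73, 4.20 and 5.85 CPM in piscivores, against 5.55, 6.61 and 15.2 CPM in planktivores, and the groups overlapped. Angptl4 in 2023 was at 0.89 (SE 0.23, 0.172), and gadd45aa and the scarce g6pca.2 at −0.52 (0.286) and −1.70 (0.298) were the list genes with the smallest p in the other direction.

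Chaperones and coregulators that hold or assist the receptors showed no common shift. All 19 listed genes were tested, their median log2 fold change was −0.02 between phenotypes in 2023 and 0.13 in 2022, and none was called between phenotypes by edgeR or DESeq2, with 0 in 2023 (13.7% of all genes) and 2 in 2022 (7.25%), hspa4a at 0.47 and ncoa1 at −0.48, at an unadjusted p below 0.05. The coactivator gene ncoa1 was called lower in 2023 in both phenotypes, where edgeR called 0.356% of all genes in piscivores and 0.971% in planktivores. It had 4.51, 4.58 and 7.06 CPM in piscivores of 2023, against 24.8, 17.5 and 18.5 CPM in piscivores of 2022, and 4.73, 7.59 and 6.05 CPM in planktivores of 2023, against 22.9, 31.1 and 31.9 CPM in planktivores of 2022. Its log2 fold change of 2023 over 2022 was −1.92 (SE 0.23, edgeR adjusted p = 0.0168) in piscivores and −2.20 (SE 0.21, 0.00889) in planktivores. The call in piscivores was lost without piscivore 2 of 2023 (0.140) or piscivore 3 of 2022 (0.0785) at log2 fold changes of −1.82 and −1.99, and that in planktivores without planktivore 6 of 2023 (−2.19, 0.0670). Without the pituitary-bearing libraries, with 1 piscivore of 2023 left, the value in piscivores was −1.52 (0.551). The year cannot be told apart from library handling or from body size.

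Of 26 genes of cortisol control, synthesis and clearance, 13 were in the table and 11 were tested. None was called by edgeR in any comparison, with 3 at an unadjusted p below 0.05 between phenotypes in 2023 (13.7% of all genes) and 2 in 2022 (7.25%). DESeq2 called 0 between phenotypes in 2023 and over both years, 1 in 2022 (hsd11b2) and 1 between years in piscivores (mc4r, adjusted p = 0.00132). In that order it called 1.40%, 0.719%, 0.502% and 1.34% of all genes. The enzyme gene hsd11b2, which inactivates cortisol, was higher in piscivores without overlap in both years. It had 9.51, 8.14 and 8.58 CPM in piscivores, against 6.65, 5.71 and 5.49 CPM in planktivores of 2023, and 7.39, 10.8 and 9.45 CPM in piscivores, against 3.80, 4.73 and 4.63 CPM in planktivores of 2022. Over both years the log2 fold change was 0.81 (SE 0.14, edgeR adjusted p = 0.0297, DESeq2 2.79e-05), again under a doubling, and leaving out 1 fish moved the edgeR adjusted p between 0.0219 and 0.103. The efflux transporter gene abcb4 gave 0.94 (SE 0.14, 0.0737) between phenotypes in 2023 and the melanocortin receptor gene mc4r 1.28 (SE 0.24, 0.0778) between years in piscivores. The steroid dehydrogenase gene hsd20b2 gave −0.70 (SE 0.21, 0.132) between phenotypes over both years, at 0.49 to 1.40 CPM.

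Immediate early genes, which neurons switch on within minutes of activation and which handling can also induce, were read beside them. Of 22 listed genes 17 were in the table, and all of these were tested. In 2022, 15 of 17 had log2 fold changes below 0 for piscivores over planktivores, with a median of −0.48, 5 lower and 1 higher at an unadjusted p below 0.05 (7.25% of all genes), 0 edgeR calls and 2 DESeq2 calls (0.502% of all genes). In 2023 the median was −0.07, with 1 higher (nr4a3, 1.13, SE 0.21, edgeR adjusted p = 0.0975) and 1 lower (ier2a, −1.28, SE 0.46, 0.295) at that p (13.7% of all genes). The list had 0 edgeR calls and 1 DESeq2 call there (1.40% of all genes). Outside the tissue markers, ier2a was the only list gene that edgeR called between phenotypes over both years (0.298% of all genes). Its log2 fold change was −1.44 (SE 0.29, edgeR adjusted p = 0.0457). It had 3.78, 2.86 and 3.10 CPM in piscivores, against 5.67, 3.96 and 14.2 CPM in planktivores of 2023, and 6.87, 5.17 and 3.58 CPM in piscivores, against 12.1, 14.7 and 19.8 CPM in planktivores of 2022. The call was kept in 2 of 12 fits without 1 fish, those without planktivore 4 of 2023 or piscivore 1 of 2022, with adjusted p of 0.0376 to 0.135 over the 12. Without the pituitary-bearing libraries, with 9 fish left, its log2 fold change was −1.57 and the adjusted p 0.190. In planktivores the median of these genes was −0.53 for 2023 over 2022, with 0 edgeR calls and 1 DESeq2 call (2.01% of all genes). At an unadjusted p below 0.05, 4 of 17 were lower and 0 higher (20.0% of all genes). Of these, jun (−0.55, SE 0.16, edgeR adjusted p = 0.119) and ier2b (−1.19, SE 0.37, 0.145) had the smallest p.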

How the data were processed

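Brain RNA of 12 pikeperch was sequenced after poly(A) selection. Trimming was done by the authors in Trimmomatic and mapping to the SLUC_FBN_1.2 genome in STAR, and the deposited count of a gene is its unique exonic reads from featureCounts. The deposited TPM equal these counts divided by exon length and rescaled. Groups follow the sample labels. Of 32987 table lines, 24 name no gene (0.589% to 3.18% of counts) and were left out.

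The main test was that of edgeR 4.0.16 under R 4.3.3 (filterByExpr, TMM, robust quasi-likelihood F test, Benjamini-Hochberg over all genes tested). Phenotypes were compared within years and years within phenotypes on 6 libraries each, and the additive and interaction models used all 12. Calls required more than 1 on the log2 scale, in either direction, with an adjusted p below 0.05. The SE of an edgeR log2 fold change was derived from the test. It is the absolute log2 fold change divided by the square root of the F statistic. Log2 CPM used a prior count of 2, and exact two-sided permutation tests shuffled labels within years or phenotypes. Within a single year 3 fish against 3 cannot go below 0.1. Alternatives were DESeq2 1.42.0, its size factors, other filters, ribosomal RNA genes left out, the adjusted p alone, 1 fit to all libraries, the replicate block, log2(TPM + 1), a prior count of 0.5 and leaving out each fish. Leaving out libraries with pituitary transcripts (over 100 CPM) was chosen after seeing the data.

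The members and gene lists were chosen with earlier results of these data known. Listed genes were matched by symbol, so those annotated under another name count as not in the table. Of each list, genes called in a comparison were picked, or else the 2 with the smallest unadjusted p below 0.05 in each direction. Not every gene picked in this way is given for every comparison. Likeness names 3 genes per member. Scripts were tested on simulated data. Gene symbols and coordinates come from the deposited table, whose positions for the 6 genes equal those of the RefSeq annotation of this build.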

Additional observations from a re-analysis of the deposited data

Results flagged for a closer look

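The phenotype difference of per1b differed between 2023 and 2022 by 2.60 on the log2 scale (edgeR adjusted p = 0.0398), with every piscivore above every planktivore in 2023 and below in 2022. The same 12 values put every piscivore of 2023 above every piscivore of 2022 and every planktivore of 2023 below every planktivore of 2022, and that difference of year effects is the same 2.60. For ddit4 every piscivore of 2023 also lay above every piscivore of 2022, and every planktivore of 2023 below every planktivore of 2022, with a difference of 1.12 that edgeR did not call. None of the 6 cortisol receptor and response genes met these criteria, and groups of 3 fish are too small for a test of single outlying fish.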

How the results depend on the processing

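Among the 6 genes, DESeq2 called 2 between phenotypes in 2022, 1 between years in piscivores and 1 in the interaction, where edgeR called 0 each, and edgeR without a filter beyond 1 count called 1 in 2022. The single call, cebpd in planktivores, became 0 to 0 calls over the fits without 1 fish and 0 without the library with pituitary transcripts. Leaving out 1 fish gave 0 to 1 calls in the interaction, and 0 to 2 exact permutation p under 0.05 for phenotype (1 with all fish). Values near 0 changed sign when 1 fish was left out. For nr3c2 the log2 fold change ranged from −0.21 to 0.10 between phenotypes in 2023, −0.51 to 0.021 in 2022, −0.41 to 0.11 between years in piscivores and −0.038 to 0.49 in the interaction. For tsc22d3 it ranged from −0.030 to 0.20 between phenotypes in 2022 and −0.023 to 0.13 between years in piscivores. For sgk1 it ranged from −0.23 to 0.072 between phenotypes in 2022, −0.11 to 0.0091 between years in planktivores and −0.26 to 0.044 in the interaction. Without the libraries with pituitary transcripts nr3c2 was at 0.12 between phenotypes in 2023 and 0.14 between years in piscivores, and sgk1 at 0.0091 between years in planktivores.

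Counts of calls over all genes moved more. In the order phenotypes in 2023, in 2022, years in piscivores, in planktivores, phenotypes over both years and interaction, edgeR called 36, 11, 73, 207, 65 and 3 genes and DESeq2 410, 148, 389, 601, 218 and 92. Leaving out 1 fish gave 1 to 16, 0 to 2, 22 to 77, 12 to 148, 1 to 113 and 0 to 8. No filter beyond 1 count gave 60, 43 and 125 in the first 3, 1 fit to all libraries 5 in the first and 419 in planktivores, at least 10 counts 24 in piscivores, and the adjusted p alone 154 over both years. Without the pituitary-bearing libraries 2, 13, 84 and 4 genes were called in 2023, in piscivores, in planktivores and over both years. With DESeq2's size factors the 2022 split was 4 higher and 5 lower, against 6 and 5. The cause of these shifts was not tested.

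Replicate numbers name different fish and pair nothing. Deviations of same-numbered fish correlated at −0.05 and 0.02 between phenotypes in 2022 and at −0.05 and 0.14 between years in piscivores. With the replicate block, fkbp5 in 2022 was at −1.93 (edgeR adjusted p = 0.160) and cebpd at −1.21 (0.0798), no member was called, and 18 and 1 of all genes were called. Each of the 6 genes had at least 122 reads in every library, and each group held 3 fish.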
